A study of Sus scrofa with 12 samples.

Results

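Macrophage marker genes, namely CD68, CD163, CD14, CSF1R, AIF1, C1QA, C1QB, C1QC, TYROBP and MRC1, were followed in RNA sequencing data from pig Semimembranosus muscle. They are the rows of the gene count matrix whose Ensembl identifier carries one of these symbols, 10 of 25880 genes listed. Each symbol had 1 identifier with counts in every pig, and all 10 were among the 14262 genes that passed the filter on low counts. The study compared 12 Italian Large White pigs from the extremes of intramuscular fat content (IMF), kept in one environment on one diet, with 6 pigs in the high IMF group (pigs 1 to 6, aged 234 to 244 days) and 6 in the low IMF group (pigs 7 to 12, aged 229 to 249 days). Each group held 3 females, or gilts, and 3 castrated males, or barrows, by the labels. By the study's methods the pigs were slaughtered on several different days, and which pigs shared a day is not given in the sources used here. Each library came from the whole muscle sample of 1 pig, so that fewer macrophages and less RNA per macrophage cannot be told apart in any of these values.

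Macrophages are phagocytes that live in most tissues, skeletal muscle included, where they clear dead cells and debris and take part in repair. Their survival depends on signals through the receptor encoded by CSF1R, and their gene programme is built around the transcription factor PU.1, the product of SPI1. Tissue macrophages are also the main source of C1q, the recognition molecule of the classical complement pathway, which is assembled from the A, B and C chains encoded by C1QA, C1QB and C1QC.

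The 3 C1q genes lie next to each other on chromosome 6 of Sscrofa11.1, at chr6:80586259-80606076, in the order C1QA, C1QC, C1QB and on the plus strand, within 19818 bases. C1QA and C1QC are separated by 3377 bases and C1QC and C1QB by 4215 bases. MRC1, on chromosome 10 at chr10:44107926-44226734, was the gene whose level followed C1QC most closely across the 12 pigs. The 250 bases before the annotated RefSeq start of these 4 genes are shown because their levels moved together more closely than those of the other markers. Capitals mark the PU.1 core GAGGAA, or TTCCTC where it reads on the other strand.
C1QA, chr6:80586009-80586258, plus strand: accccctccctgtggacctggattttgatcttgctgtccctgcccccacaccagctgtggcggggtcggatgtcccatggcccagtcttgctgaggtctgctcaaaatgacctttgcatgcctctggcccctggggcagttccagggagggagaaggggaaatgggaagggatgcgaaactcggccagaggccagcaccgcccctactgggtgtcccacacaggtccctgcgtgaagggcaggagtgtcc
C1QC, chr6:80592341-80592590, plus strand: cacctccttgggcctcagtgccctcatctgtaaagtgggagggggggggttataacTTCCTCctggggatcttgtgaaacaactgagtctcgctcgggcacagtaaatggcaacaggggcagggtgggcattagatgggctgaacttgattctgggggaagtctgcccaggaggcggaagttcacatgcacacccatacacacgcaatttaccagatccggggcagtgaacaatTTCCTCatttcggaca
C1QB, chr6:80601430-80601679, plus strand: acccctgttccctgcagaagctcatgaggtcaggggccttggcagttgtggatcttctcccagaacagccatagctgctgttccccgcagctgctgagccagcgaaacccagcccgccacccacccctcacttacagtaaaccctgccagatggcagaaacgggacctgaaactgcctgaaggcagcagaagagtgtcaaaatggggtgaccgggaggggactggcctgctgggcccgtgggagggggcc
MRC1, chr10:44107676-44107925, plus strand: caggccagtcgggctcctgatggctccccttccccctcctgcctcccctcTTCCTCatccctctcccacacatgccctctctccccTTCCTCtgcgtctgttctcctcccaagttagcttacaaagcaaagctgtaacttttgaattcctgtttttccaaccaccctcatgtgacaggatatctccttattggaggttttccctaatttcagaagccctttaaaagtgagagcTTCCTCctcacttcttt
The core stands 194 and 16 bases before the start of C1QC and 200, 164 and 17 bases before that of MRC1, and its letters do not occur in these windows of C1QA and C1QB. Of the 10 markers, 4 held the core on either strand (C1QC, MRC1, AIF1 and TYROBP), against 21.97% of 19556 windows of the same length before protein-coding genes. The AP-1 letters TGANTCA were found before CD68 and CD14, 2 of 10, against 5.267% of all windows. The C/EBP letters TTGCNNAA and the TATA box TATAAA were found before 0 of 10, against 8.217% and 9.767%. Each window lies before the start of the RefSeq gene span, which for AIF1 runs from 23711752 to 23731191 and holds 3 transcripts. That start need not be the start of each transcript. These matches describe letters in a window and were not set against binding data.

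Levels are given in CPM, read counts scaled to one common library size, after normalization by the trimmed mean of M values (TMM). Library totals ran from 131048805 to 178013997 counts. The TMM factor was 0.81 in pig 7 and between 0.9181 and 1.123 in the others. By the study's mapping statistics, pig 7 had the lowest share of uniquely mapped reads and the highest shares of multiply mapped and unmapped reads. The most abundant gene took 16.8% of the counts in pig 6 and 9.71% to 15.4% in the other pigs. Counts of the Y-linked genes EIF1AY and KDM5D went against the labelled sex in 6 pigs, pigs 3 and 5 of the high IMF group and pigs 7, 8, 9 and 10 of the low IMF group, and the calls and log2FCs of the markers were also computed without these 6 pigs. Whether sex labels or libraries were exchanged, and whether any IMF group label is affected, was not tested. The defining markers of muscle were high in every pig, with a summed level of ACTA1, CKM, NEB, DES, TNNT3 and TNNC2 between 54670 and 86500 CPM.

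The macrophage markers differed among themselves when set on a scale per length. With CPM divided by the length of the RefSeq transcript in kilobases, C1QC had the highest mean at 16.6 ± 5.36 CPM per kilobase (SD, n = 12 pigs). C1QB followed with 12.7 ± 4.82 and C1QA with 12.1 ± 4.52 CPM per kilobase, and these neighbours did not differ beyond their spread, since C1QB was the higher in 8 of 12 pigs. CD163 had 9.00 ± 2.20 CPM per kilobase, below C1QA in 10 of 12 pigs. MRC1 at 4.07 ± 1.73 and TYROBP at 3.63 ± 1.32 CPM per kilobase overlapped, with MRC1 the higher in 9 of 12 pigs. TYROBP was above CD68 in 12 of 12 pigs. CD68 at 2.95 ± 1.33 and CSF1R at 2.95 ± 0.869 CPM per kilobase could not be ordered, as CD68 was the higher in only 4 of 12 pigs. AIF1 had 2.04 ± 0.610 and CD14 had 0.841 ± 0.358 CPM per kilobase, and CD14 was the lowest of the 10 in the mean.

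The C1q chains kept close proportions. The ratio of C1QA to C1QB per kilobase was 0.950 ± 0.0883 over the 12 pigs, with a coefficient of variation of 9.30%. The ratio of C1QC to C1QB was 1.33 ± 0.113, with a coefficient of variation of 8.55%. Across the same pigs the single markers varied far more, from 24.4% for CD163 to 45.03% for CD68. Counting error accounted for little of this, between 1.49% for CD163 and 7.26% for AIF1. The ratio of C1QB to MRC1 was also steady, 3.16 ± 0.347 per kilobase, although MRC1 lies on another chromosome.

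CSF1R (chr2:151102138-151130311, minus strand) encodes the receptor for the growth factors CSF1 and IL34. In the high IMF group it had a lowest value of 7.93, a median of 10.5 and a highest value of 17.2 CPM. In the low IMF group these were 8.45, 11.3 and 17.6 CPM. After TMM scaling the highest pig was pig 7, and pig 2 was close behind it. The groups covered the same range, and the log2 fold change (log2FC, low over high IMF) was 0.05 with a standard error of 0.23.

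CD14 (chr2:142348036-142349686, minus strand), the co-receptor that hands bacterial lipopolysaccharide to TLR4, had 106 to 305 counts per pig. It was measured at 0.731, 1.27 and 2.42 CPM in the high IMF group (lowest, median and highest) and at 0.904, 1.09 and 2.42 CPM in the low IMF group. Pigs 6 and 7 stood alone at the top with almost the same level, 1 in each group, and the log2FC was -0.05 ± 0.32 (SE).

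CD163 (chr5:63300200-63334497, plus strand) is the scavenger receptor that takes up haptoglobin-haemoglobin complexes. It had 20.5, 26.8 and 37.5 CPM in the high IMF group and 24.8, 30.2 and 46.5 CPM in the low IMF group. CD163 was one of the 2 markers with a positive log2FC, 0.25 ± 0.18 (SE), with pig 7 at the top and pig 12 next after TMM scaling. Pig 6 was not extreme for it, at 33.1 CPM.

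MRC1, which encodes the mannose receptor CD206 of macrophages and some endothelial cells, had 15.3, 17.9 and 46.5 CPM in the high IMF group and 14.8, 17.7 and 26.1 CPM in the low IMF group. The medians were nearly equal, and the highest value was that of pig 6, which was 1.76 times the next pig, pig 1. The log2FC was -0.36 ± 0.26 (SE). The ratio of CD163 to MRC1 per kilobase was 1.08 in pig 6, the lowest of the 12 pigs. Its median was 2.03 in the high IMF and 2.88 in the low IMF group, and the ranges, 1.08 to 2.65 and 1.99 to 3.11, overlapped.

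TYROBP (chr6:45309199-45312562, minus strand), the signalling adaptor also called DAP12, had 1.15, 1.88 and 3.68 CPM in the high IMF group and 1.30, 1.54 and 2.31 CPM in the low IMF group. Pig 6 was again the highest and pig 7 came next. Its log2FC was -0.31 ± 0.25 (SE).

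The C1q genes repeated this arrangement. C1QA had 7.95, 9.28 and 18.3 CPM in the high IMF group and 6.82, 8.09 and 16.6 CPM in the low IMF group. C1QB had 9.45, 12.5 and 26.4 CPM against 9.47, 10.7 and 19.1 CPM. C1QC had 15.2, 17.5 and 35.4 CPM against 14.6, 15.9 and 26.0 CPM. In each of the 3 genes pig 6 was the highest of its group, pig 7 the highest of the low IMF group, and pig 1 ranked next after them. The log2FCs were -0.25 ± 0.26, -0.27 ± 0.25 and -0.28 ± 0.21 (SE) for C1QA, C1QB and C1QC, each close to its own standard error.

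CD68 (chr12:52874754-52877256, plus strand) encodes a glycoprotein of late endosomes and lysosomes. It had 2.42, 3.04 and 8.19 CPM in the high IMF group and 2.42, 3.07 and 5.20 CPM in the low IMF group. Without pig 6 the high IMF group spanned only 2.42 to 3.31 CPM. The log2FC was -0.16 ± 0.29 (SE) with all pigs and 0.22 ± 0.19 without pig 6, so its sign rested on that pig.

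AIF1 (chr7:23711752-23731191, plus strand), the calcium-binding protein also known as IBA1, had 0.945, 1.45 and 2.29 CPM in the high IMF group and 0.940, 1.08 and 1.35 CPM in the low IMF group. It was the marker with the largest difference in size, with a log2FC of -0.46 ± 0.20 (SE), and 4 of the 6 high IMF pigs exceeded the highest low IMF pig. Pig 7 was not raised for AIF1, at 1.05 CPM. The RefSeq span of AIF1 overlaps LST1 on the same strand by 1236 bases and NCR3 on the other strand by 3656 bases, and how the counting treated such reads is not given in the sources used here.

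**Figure D1:**
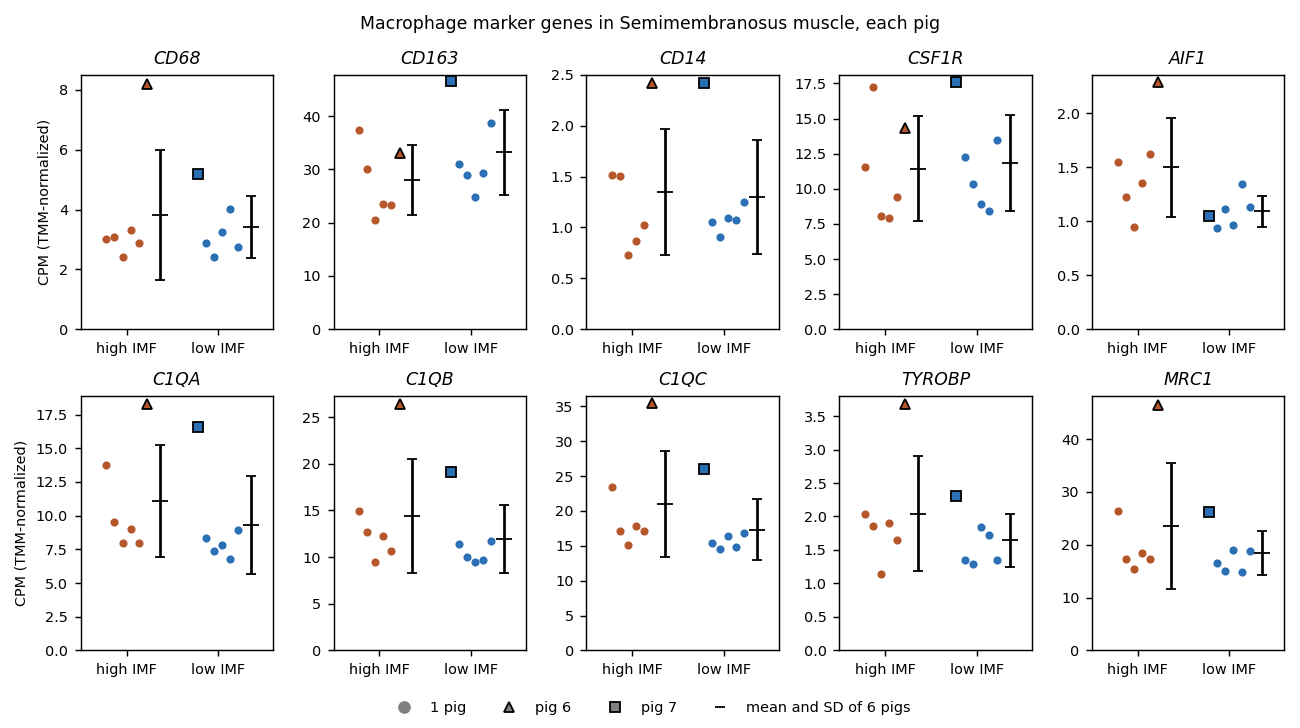
TMM-normalized CPM (vertical axes, from 0) of the 10 macrophage markers in each of the 6 high IMF pigs (brown) and 6 low IMF pigs (blue), with the group mean and SD beside the points. Pig 6 (triangle) is the highest pig in 8 panels and pig 7 (square) in the CD163 and CSF1R panels.

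The comparison of low with high IMF addressed which transcripts differ between muscles with little and much fat. No marker differed between the groups by the study's thresholds (an adjusted p no higher than 0.05 with a log2FC beyond 0.58 in either direction) in edgeR's quasi-likelihood test. Over all tested genes this rule called 0 of 14262, or 0.0%. The lowest adjusted p among the markers was that of AIF1, 0.463, and the others lay between 0.654 and 0.974 in edgeR. DESeq2's Wald test on the same genes called 58 genes, 0.407%, and limma-voom called 0. Neither called a marker, and the adjusted p of AIF1 was 0.351 with DESeq2.

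At an unadjusted p at or under 0.05 in edgeR, 1 of the 10 markers passed, which was AIF1 at 0.0413, beside 10.4% of all genes tested. In the exact two-sided permutation test over 924 arrangements of the pigs, which could reach 0.00216, AIF1 had p = 0.0498 and the other 9 had p between 0.234 and 0.994. The groups overlapped for every marker, while 0.659% of all genes had groups that did not overlap. The log2FC was negative, higher in high IMF, for 8 of 10 markers, with a median of -0.264. Of all tested genes 51.61% were negative, with a median of -0.00835.

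The size of this lean towards high IMF moved with pigs 6 and 7. Without pig 6 the median log2FC of the 10 markers was -0.0276 and 6 were negative. MRC1 then had -0.04 ± 0.17 (SE), C1QB -0.01 ± 0.19 and TYROBP -0.06 ± 0.20, while AIF1 kept -0.30 ± 0.18. Without pig 7, in turn, the median was -0.425 and 9 were negative. With both pigs left out it was -0.168 and 8 were negative, and no marker was called in any of these edgeR fits. Without the 6 pigs whose Y-linked counts went against the label, the median was -0.494 and 9 were negative. That fit kept pigs 1, 2, 4 and 6 of the high IMF group but only pigs 11 and 12 of the low IMF group. It thus held pig 6 and not pig 7, so its median cannot be separated from the effect of these pigs.

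**Figure D2:**
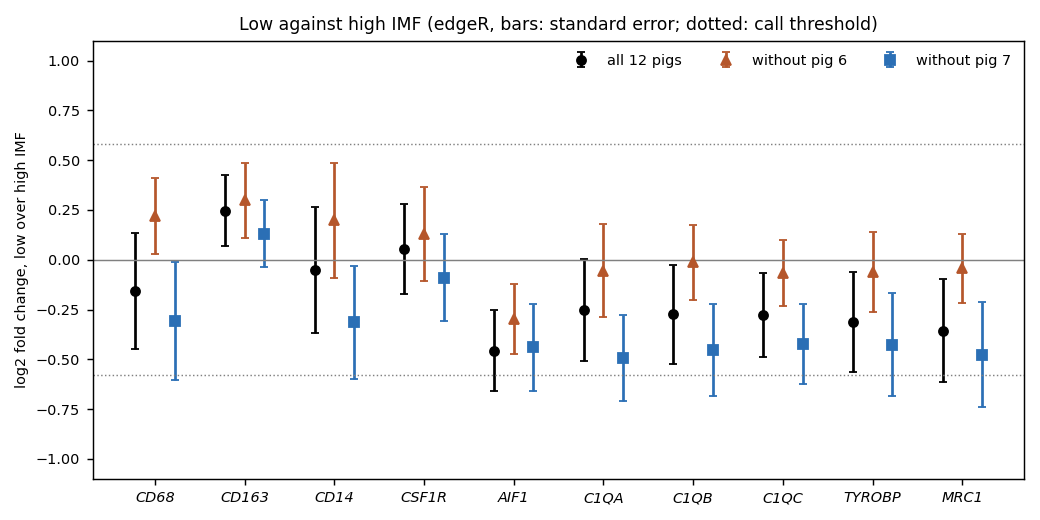
The log2FC (low over high IMF, vertical axis) of the 10 markers from edgeR with all 12 pigs (black), without pig 6 (brown) and without pig 7 (blue). Bars are standard errors and dotted lines mark the call threshold. The values without pig 6 move up and those without pig 7 mostly down, and none lies past the threshold.

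The pigs kept a similar order from one marker to the next, with a Kendall coefficient of concordance of 0.637 over 10 markers and 12 pigs. Pig 6 was the highest of the 12 pigs for 8 markers and pig 7 for the other 2, CD163 and CSF1R. The lead of pig 7 in these 2 markers rests on its TMM factor of 0.81. In CPM of the library total, pig 12 was above pig 7 for both. Over all tested genes pig 6 was the highest for 15.3% and pig 7 for 13.5%. Pig 3 was the lowest for 5 markers, and pigs 3 and 9 were each under the median of the 12 pigs for all 10. Pig 1 was among the highest 3 pigs for 8 markers.

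The summed level of the 10 markers was 81.8 CPM at the lowest, 104.0 at the median and 190.6 at the highest in the high IMF group. In the low IMF group it was 92.0, 97.4 and 162.9 CPM. The highest values were those of pigs 6 and 7, and the other 10 pigs lay between 81.8 and 135.7 CPM. The group means, 118.2 ± 40.1 and 109.5 ± 27.6 CPM (SD, n = 6), differed by less than either SD, and without pig 6 the high IMF mean was 103.7 ± 20.9 CPM. The place of pig 7 depended on the scaling, since in CPM of the library total, without TMM, it had 132.0 beside 143.6 in pig 1, 129.2 in pig 12 and 183.4 in pig 6.

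Across the 12 pigs the 45 pairs of markers all had a positive Pearson correlation of log2 CPM. The median r was 0.782, and 25 of 45 pairs reached 0.7, whereas pairs of all tested genes had a median of -0.001 and 1.51% reached 0.7. With group means subtracted the median r of the markers was 0.800. Within the high IMF group it was 0.859 and within the low IMF group 0.771. Without pig 6 it was 0.667, with 43 pairs positive and 21 at 0.7 or more. Without pigs 6 and 7 it was 0.498, with 42 pairs positive and 9 at 0.7 or more, beside 2.44% of all gene pairs. By permutation with 100000 resamples, adjusted over the 45 pairs, 30 pairs passed 0.05 for r, 21 for Spearman's rho and 20 for both.

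The closest pair was C1QC and MRC1, with r = 0.982 and rho = 0.867 (permutation p = 1e-05 for r, the smallest that the resampling could give, and adjusted p = 0.000225 for r and 0.00488 for rho). Without pigs 6 and 7, the pigs farthest from the median of C1QC, r was 0.961. C1QB and C1QC had r = 0.968 and rho = 0.881 (adjusted permutation p = 0.00045 and 0.00394), and r = 0.844 without the same pigs. C1QA and C1QC had r = 0.967 and rho = 0.909 (adjusted permutation p = 0.00045 and 0.00338), and r = 0.942 without them. The 3 C1q genes and MRC1 thus moved together in the remaining 10 pigs as well, with r between 0.769 and 0.961 over their 6 pairs.

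CD68 was different in this respect. Its r with TYROBP was 0.913 with 12 pigs and 0.719 without pigs 6 and 7. Its r with C1QC was 0.838 (rho = 0.601, adjusted permutation p = 0.00726 and 0.0765) and fell to 0.113 without these pigs. With C1QB it went from 0.839 to 0.0625, with MRC1 from 0.826 to 0.0858 and with C1QA from 0.743 to -0.0657. The relation of CD68 to the C1q genes and MRC1 therefore rested on pigs 6 and 7.

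CD163 and CSF1R, the markers led by pig 7 after TMM scaling, were closest to each other and to CD14. CD163 and CSF1R had r = 0.789 and rho = 0.811 (adjusted permutation p = 0.00583 and 0.0116), and r = 0.648 without pigs 3 and 7, the farthest from the median of CD163. CD163 and CD14 had r = 0.782 and rho = 0.825 (adjusted permutation p = 0.00583 and 0.00984), and r = 0.568 without those pigs. CD14 and CSF1R had r = 0.819 and rho = 0.797 (adjusted permutation p = 0.00286 and 0.0143), and r = 0.764 without pigs 6 and 7.

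AIF1 had low correlations with CD163 and CSF1R over the 12 pigs. Its r was 0.0945 with CD163 and 0.108 with CSF1R (adjusted permutation p = 0.769 and 0.761), the lowest of the 45 pairs. With group means subtracted these were 0.402 with CD163 and 0.191 with CSF1R. Within the high IMF group they were 0.589 and 0.395, and within the low IMF group 0.0524 and -0.315. Its median r with the other 9 markers was 0.604, and 0.102 without pig 6. In the low IMF group alone it had an r of -0.367 with MRC1, and in the high IMF group 0.861, each over 6 pigs and not tested against each other.

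**Figure D3:**
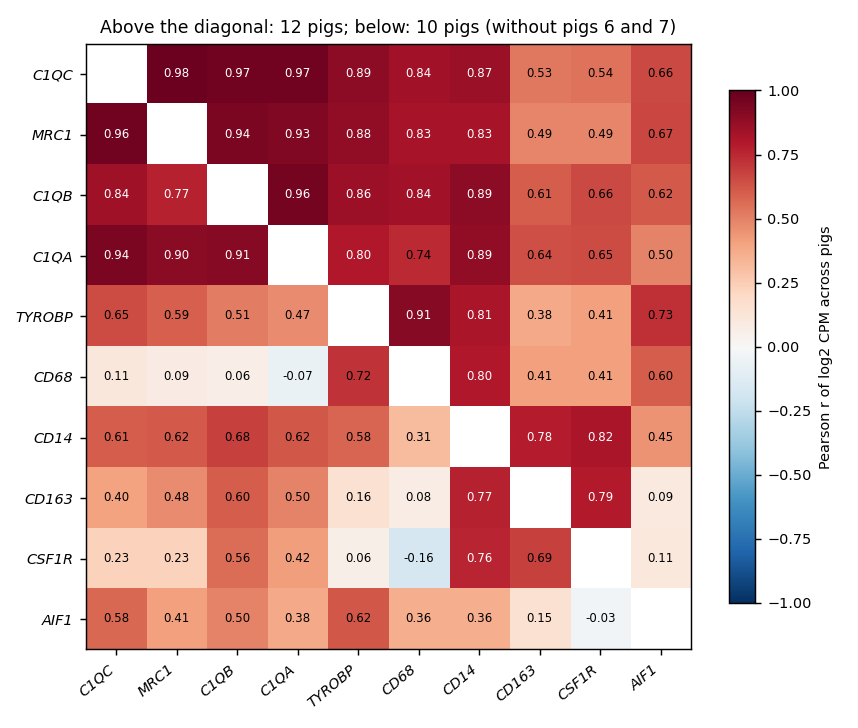
Pearson r of log2 CPM for each pair of the 10 markers, over 12 pigs above the diagonal and over the 10 pigs without pigs 6 and 7 below it, on a colour scale from -1 to 1. The block of C1QC, MRC1, C1QB and C1QA stays dark on both sides, while the CD68 row pales below the diagonal.

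**Figure D4:**
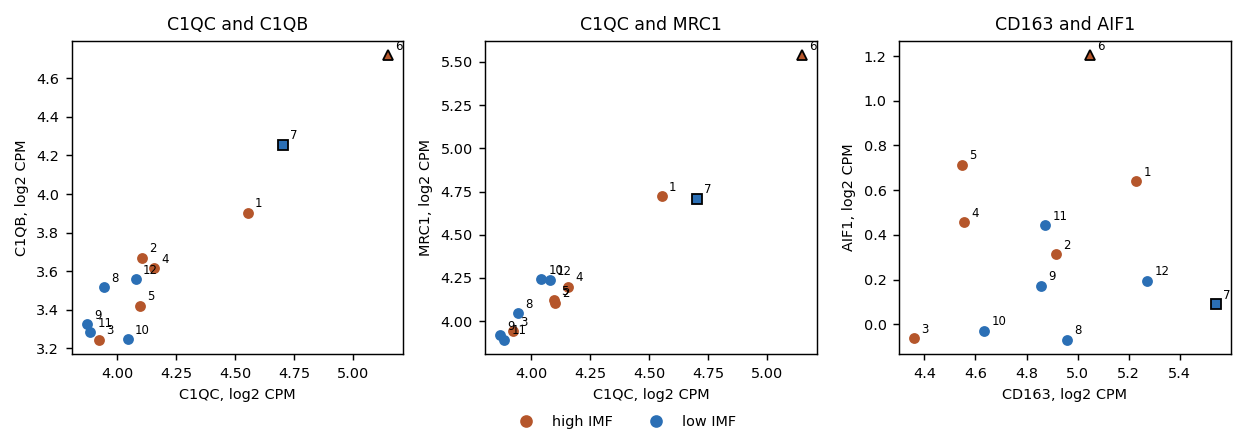
Log2 CPM of C1QB against C1QC, MRC1 against C1QC and AIF1 against CD163, each point 1 pig with its number, high IMF in brown and low IMF in blue, pig 6 as a triangle and pig 7 as a square. Pigs 6, 7 and 1 extend the C1q and MRC1 lines upwards, and AIF1 and CD163 had r = 0.0945 over the 12 pigs.

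The genes outside the list whose log2 CPM followed the mean scaled level of the 10 markers most closely over the 12 pigs began with SPI1, which encodes PU.1, at r = 0.934 (0.868 without pig 6). CFP, the complement regulator properdin, had r = 0.931 (0.874 without pig 6), and ITGB2, the common chain of the leukocyte integrins, had r = 0.924 (0.851). F13A1, the coagulation factor XIII A chain made by macrophages and platelets, had r = 0.912, and CSF2RB, a shared chain of receptors for haematopoietic growth factors, had r = 0.911. The ribosomal protein gene RPL3 (0.927), SLC25A5 (0.907), EMILIN2 (0.899), C4BPA (0.894) and RSL1D1 (0.891) completed the 10. These genes were picked for their likeness out of 14252, of which the median r was 0.00619 and the 99th percentile 0.766. Taken gene by gene, C1QA and C1QB were closest to C1QC, C1QC and MRC1 to each other, and CD68 to LGMN, the lysosomal protease legumain, at r = 0.934. AIF1 was closest to GPR183, a chemotactic receptor of leukocytes, at r = 0.913, and had 0 of the other markers among its 100 most similar genes. TYROBP was closest to SLC38A6 (r = 0.943), CD163 to RBM10 (0.910), CSF1R to KLC2 (0.910) and CD14 to RPL3 (0.908), which are not on the list of markers.

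Partners of the markers in their pathways were read from gene lists, and in none of the 17 lists was a gene called by edgeR. In the 6 lists of partners, 5 of 45 tested genes had an unadjusted p under 0.05, or 11.11%, beside 10.4% of all genes tested. For the CSF1R ligands and macrophage transcription factors, 6 of 7 tested genes had a negative log2FC, with a median of -0.19. CEBPA, a myeloid and adipocyte factor, was the member at an unadjusted p under 0.05 (log2FC -0.82, edgeR adjusted p = 0.451). Pig 6 held the highest level of CEBPA, 0.523 CPM. The ligands were named after their values were seen. CSF1 had 48.8 CPM in pig 6 beside a median of 11.4 CPM over the 12 pigs, whereas IL34 ran only from 2.57 to 4.43 CPM. Of the 7 tested complement partners 6 were negative, with a median of -0.15, and ITGAM, the integrin chain of complement receptor 3, was also under 0.05 before adjustment (log2FC -1.06, edgeR adjusted p = 0.422). Pig 5 and not pig 6 had its highest level, 21.4 CPM.

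Of the TYROBP partners, Fc receptors and their kinases, 6 of 6 were negative with a median of -0.25, and the kinases with the most counts, LYN and FGR, had a log2FC of -0.15 ± 0.17 and -0.11 ± 0.20 (SE). TREM2, a TYROBP partner, had at most 0.341 CPM and was not tested. Among scavenger and pattern recognition receptors 6 of 7 were negative with a median of -0.36. CD209 (log2FC -0.89, adjusted p = 0.427) and MSR1 (log2FC -0.96, adjusted p = 0.477), both endocytic receptors, had an unadjusted p under 0.05 in edgeR, and pig 6 held the highest value of each, 7.60 and 5.81 CPM. Among the lysosome and NADPH oxidase genes of phagocytes 8 of 10 were negative with a median of -0.37, and CTSS, the protease cathepsin S, was under 0.05 before adjustment (log2FC -0.42, edgeR adjusted p = 0.441). The highest level of CTSS, 23.8 CPM, was that of pig 6. The genes of resident and recruited macrophages were split, 4 of 8 negative with a median of -0.09, and FABP5 and FOLR2, those with the most counts, had a log2FC of 0.46 ± 0.33 and 0.07 ± 0.14 (SE).

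The mean scaled level of each list was also set against that of the 10 markers over the 12 pigs, as 17 relations with p adjusted over them. The lysosome and oxidase list had r = 0.932 and rho = 0.839 (adjusted permutation p = 0.000595 and 0.00449), and r = 0.695 without pigs 6 and 7. The scavenger and pattern recognition list had r = 0.908 and rho = 0.909 (adjusted permutation p = 0.000595 and 0.00187), and r = 0.927 without them. The TYROBP partner list had r = 0.871 and rho = 0.881 (adjusted permutation p = 0.00191 and 0.00272), and r = 0.856 without them. The complement partner list had r = 0.798 and rho = 0.832 (adjusted permutation p = 0.00191 and 0.00449), and r = 0.683 without them. The list of ligands and factors had r = 0.604 and rho = 0.664 (adjusted permutation p = 0.0788 and 0.0525), r = 0.398 without pig 6 and r = 0.906 without pigs 6 and 7. All 5 of these lists thus kept a positive r among the remaining 10 pigs. The resident and recruited macrophage list had r = 0.722 and rho = 0.385 (adjusted permutation p = 0.0344 and 0.374), and r = -0.133 without pigs 6 and 7, so that its relation rested on them.

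Markers of other cells moved with pig 6 as well. The pan-leukocyte list summed to 116.6 CPM in pig 6 and to between 33.5 and 57.6 CPM in the other pigs. All 10 of its genes had a negative log2FC, beside 51.61% of all tested genes, and their median was -0.37. Of these 10 genes, 2 had an unadjusted p under 0.05 in edgeR, beside 10.4% of all genes tested. They were CD53 (log2FC -1.37, adjusted p = 0.427) and CD48 (log2FC -0.92, adjusted p = 0.452). How far the log2FCs of this list rest on pig 6 was not tested. Pig 6 held the highest value of CD53 and CD48, 36.3 and 5.21 CPM. The red blood cell list summed to 633.1 CPM in pig 6, mostly HBB with 619.9 CPM, and to between 41.3 and 122.4 CPM elsewhere. The neutrophil list summed to 6.76 CPM in pig 6, of which the granulocyte receptor CSF3R gave 5.74 CPM, and to between 0.229 and 1.77 CPM elsewhere, with the neutrophil gene MPO at 0 in every pig. The T and NK cell list had its highest sum in pig 6, 10.6 CPM beside 5.40 to 7.69 CPM elsewhere. The skeletal muscle fibre list had its lowest sum in pig 6, 54670 CPM, and its highest in pig 7, 86500 CPM. Pig 7 also had the highest sums of the endothelial list, 188.3 CPM, and the adipocyte list, 1475 CPM. The first places of pig 7 in the muscle fibre, endothelial and adipocyte sums rest on its TMM factor of 0.81. They do not hold in CPM of the library total. Most of the adipocyte sum in pig 7 was GPD1, at 1092 CPM. On the mean scaled level, which weighs genes equally, the adipocyte list had -0.439 in pig 7 and its highest value, 0.964, in pig 8. The part of these cells in the marker levels of pigs 6 and 7 was not tested.

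Over the 12 pigs the pan-leukocyte list had r = 0.872 with the 10 markers and rho = 0.755 (adjusted permutation p = 0.00197 and 0.017), and r = 0.485 without pigs 6 and 7. The red blood cell list had r = 0.681 and rho = 0.441 (adjusted permutation p = 0.0567 and 0.291), and r = 0.131 without them. The T and NK cell list had r = 0.603 and rho = 0.105 (adjusted permutation p = 0.0954 and 0.849), and r = -0.0709 without them. The fibro-adipogenic stroma had r = 0.599 and rho = 0.846 (adjusted permutation p = 0.0857 and 0.00449), and r = 0.519 without them. The other 7 lists, of B and plasma cells, neutrophils, mast cells, dendritic cells, adipocytes, endothelium and muscle fibres, had r between -0.298 and 0.507 and an adjusted permutation p of at least 0.130.

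Of the 62 tested genes in the 10 lists of other cell types, 5 had an unadjusted p under 0.05 in edgeR, or 8.06%, beside 10.4% of all genes tested. Higher in high IMF at that level were JCHAIN of plasma cells (log2FC -0.47), MS4A2 of mast cells (-0.33), CCR7 of dendritic cells (-1.40) and PDGFRA of the stroma (-0.42), and higher in low IMF was CDH5 of endothelium (0.55). Their adjusted p lay between 0.383 and 0.463. Negative log2FCs made up 8 of 9 T and NK cell genes (median -0.42), 3 of 3 B and plasma cell genes (median -0.27), 2 of 4 neutrophil genes (median -0.08), 3 of 4 mast cell genes (median -0.24) and 4 of 5 dendritic cell genes (median -0.39). They made up 2 of 10 adipocyte genes (median 0.15), 3 of 8 endothelial genes (median 0.13), 4 of 9 stromal genes (median 0.00192), 4 of 4 red blood cell genes (median -0.74) and 1 of 6 muscle fibre genes (median 0.17). Where no gene of a list was under 0.05, those with the most counts are given. CD247 and CD2 of T and NK cells had a log2FC of -0.20 ± 0.15 and -0.39 ± 0.31 (SE), CSF3R and S100A12 of neutrophils -0.99 ± 0.97 and 0.55 ± 0.79, and HBB and ALAS2 of red blood cells -0.83 ± 0.62 and -0.64 ± 0.48. PLIN4 and GPD1 of adipocytes had 0.16 ± 0.22 and 0.00871 ± 0.119, and ACTA1 and NEB of muscle fibres had 0.29 ± 0.18 and -0.00645 ± 0.116.

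**Figure D5:**
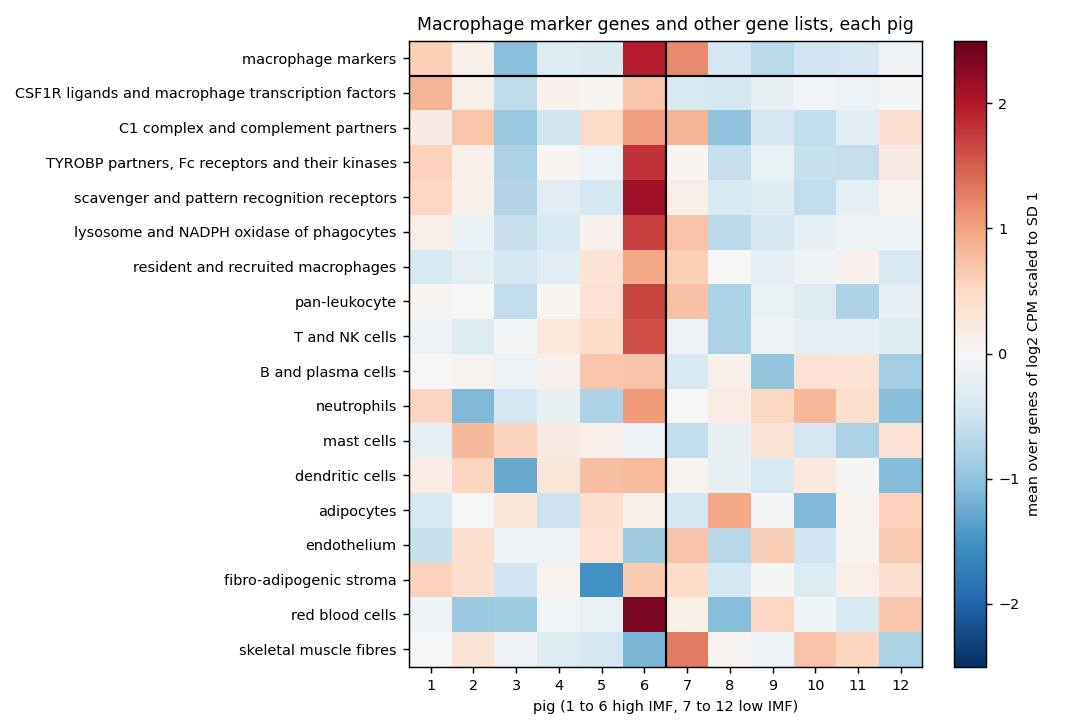
Mean over genes of log2 CPM, scaled per gene to mean 0 and SD 1, for the macrophage markers (top row) and 17 other lists in each pig as a colour. The vertical line separates high IMF (pigs 1 to 6) from low IMF (pigs 7 to 12). Pig 6 is high in the macrophage, leukocyte and red blood cell rows and low in the muscle fibre row, and pig 7 is high in the macrophage and muscle fibre rows.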

How the data were processed

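Total RNA from Semimembranosus muscle of 12 pigs was made into stranded mRNA libraries and sequenced as read pairs, with pairs of libraries sharing a lane. Per the labels and the study's methods, the authors used Trimmomatic for trimming, HISAT2 for alignment to Sscrofa11.1, StringTie for the known transcripts and HTSeq for the gene counts. The deposited values are whole-number counts per Ensembl gene and pig, not normalized. The annotation release, strand option and handling of multiply aligned reads are not given in the sources used here, nor is it which libraries shared a lane. Of 25880 genes, 5539 had no count and 14857 had a symbol.

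Genes kept by filterByExpr were TMM-normalized and tested by the quasi-likelihood method of edgeR 4.0.16 under R 4.3.3. Group was the only term, and Benjamini-Hochberg adjustment covered 14262 genes. The common biological coefficient of variation was 0.332. Log2 CPM used a prior count of 2. DESeq2 1.42.0, limma 3.58.1, other scalings and filters, covariates and left-out pigs were alternatives, and the tests were tried on simulated data. Correlations, permutation tests and figures used numpy 2.4.6, scipy 1.17.1, pandas 2.3.3 and matplotlib 3.10.9 on Python 3.11.15. Gene positions, transcript lengths and the 250-base windows come from RefSeq on Sscrofa11.1. The p-values measure the spread between 12 pigs, each sequenced once.

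The markers and the 17 lists were chosen with earlier results of these data known. Other genes were named where an unadjusted edgeR p was at or under 0.05 (at most 4 a list, smallest p first), otherwise the 2 with most counts, and the 10 genes most like the markers' mean.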

Additional observations from a re-analysis of the deposited data

Results flagged for a closer look

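In 5 of 20 groups of 6 pigs (10 markers in 2 IMF groups), the gap of the most extreme pig to its neighbour, as a share of the group's range of log2 CPM, exceeded Dixon's critical value for 6 samples. Chance gives this in about 1 in 20 groups, and the markers are not independent of each other. In the high IMF group, the share was 0.743 for CD68, where pig 6 had 8.19 CPM and the next pig 3.31 CPM. In the low IMF group it was pig 7 each time. The share was 0.668 for CD14 (2.42 CPM beside 1.25), 0.698 for C1QA (16.6 CPM beside 8.91), 0.692 for C1QB (19.1 CPM beside 11.8) and 0.749 for C1QC (26.0 CPM beside 16.9). The TMM factor of pig 7 was 0.81. Its summed level of the 10 markers was 162.9 CPM with TMM and 132.0 CPM without, whereas pig 1 had 135.7 and 143.6 CPM.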

How the results depend on the processing

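No marker was called under any of the 25 alternatives, although DESeq2's Wald test called 58 genes of 14262 and 65 of the 20341 with at least 1 count, where edgeR called 0, and edgeR called 1 gene without pig 5 and 1 without pig 10. CD163 (positive) and AIF1, C1QA, C1QB, C1QC, TYROBP and MRC1 (negative) kept the sign of their log2FC under all 25. CD14 turned to 0.0758 with labelled age as a covariate, and CSF1R turned to -0.21 without the 6 pigs whose Y-linked counts went against their label. Without pigs 6 and 7, an alternative chosen after seeing the data, CD68 turned to 0.0668 and CSF1R to -0.0130. When pigs were omitted singly, the log2FC ran from -0.31 to 0.22 for CD68, from -0.31 to 0.20 for CD14 and from -0.0898 to 0.207 for CSF1R. The cause was not tested. The median r over the 45 pairs moved from 0.782 to 0.498 without pigs 6 and 7, with 9 pairs at 0.7 or more, and 2.44% of all gene pairs then reached 0.7. Omitting pigs singly gave medians from 0.667 to 0.818. The unadjusted p of AIF1, 0.0413 in edgeR, rose above 0.05 with limma-voom (0.0718) and in edgeR with labelled age as a covariate (0.0550), without the 6 pigs with discordant Y-linked counts (0.288), without pigs 6 and 7 (0.168), and with no scaling beyond the library total (0.0593), also chosen after seeing the data. It was also above 0.05 in edgeR when pig 1, 5, 6, 7, 8, 9, 10 or 12 was left out, from 0.0584 to 0.119. No paired analysis was possible because the groups consist of different pigs whose labels share no number. With 6 pigs a group, standard errors of the log2FC were between 0.18 and 0.32. AIF1, at -0.46 with a standard error of 0.20, had an adjusted p of 0.463 in edgeR. Differences of the size of these standard errors, or somewhat larger, thus cannot be resolved.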

Other observations

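Some genes of activated or recruited phagocytes were far above their median over the 12 pigs in pig 6, and are given as values chosen after they were seen. CCR1, a chemokine receptor of monocytes and neutrophils, had 15.7 CPM in pig 6 and a median of 1.70 CPM over the 12 pigs. GPNMB, a glycoprotein of lipid-laden and lysosome-rich macrophages, had 30.4 CPM beside a median of 5.69 CPM. SPP1, which encodes osteopontin, had 15.2 CPM in pig 6 and 22.1 CPM in pig 7, beside a median of 1.03 CPM, while FABP5 was lowest in pig 6, at 10.6 CPM, and highest in pig 7, at 56.4 CPM. FOLR2, a receptor of resident macrophages, had 11.4 CPM in pig 6, near its median of 12.1 CPM. Other genes of the resident and recruited list did not follow FOLR2. LYVE1 and F13A1 were highest in pig 6, at 7.905 and 23.87 CPM beside medians of 5.463 and 8.164 CPM. TIMD4 had 0.4281 CPM in pig 6 beside a median of 0.1626 CPM, and CX3CR1 had 0.4044 CPM beside 0.3029 CPM. Whether resident or recruited cells differed in pig 6 was not tested.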
